A study of Ambystoma mexicanum with 12 samples.

Results

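Neurofilaments and the neuronal cytoskeleton of the axon were followed through 10 genes of 15091 in axolotl (Ambystoma mexicanum) spinal cord. The genes were picked by symbol: NEFL, NEFM, NEFH, INA and PRPH, which encode intermediate filament proteins of neurons, STMN2 and GAP43, which encode growth-associated proteins, and TUBB3, MAPT and MAP1B, which encode a tubulin and microtubule-associated proteins. All 10 passed the filter of a mean of at least 1 TPM over the libraries (transcript abundance relative to the library's total and corrected for length), as did 13824 genes in all. Levels were measured by RNA sequencing in 12 libraries, 3 for each of 4 groups: uninjured cords, cords 4 days post injury (4 dpi) that had received a control inhibitor, uninjured cords injected with a miR-200a inhibitor, and cords at 4 dpi with the miR-200a inhibitor. A miR-200a inhibitor is an oligonucleotide that blocks this microRNA. It was injected into the central canal, and the methods describe electroporation after the injection and a repeat before collection. That schedule is given for injured cords. The RNA sequencing methods do not describe the uninjured inhibitor group, so its schedule and time of collection are not known. The labels give 10 pooled animals of 2 to 3 cm per RNA sample. The tissue was spinal cord, a mixture of neurons, glia and attached tissue. At 4 dpi it came from around the lesion, where axons had been cut. The titles of uninjured libraries 1 and 5 contain Cntl, as do those of the 4 dpi controls. That of the remaining uninjured library, called unnumbered below, contains RNA instead. No label tells whether uninjured cords without inhibitor were also injected, so that injury and procedure cannot be told apart in the comparison of 4 dpi control cords with them. For the same reason inhibitor and injection cannot be told apart in uninjured inhibitor against uninjured cords, nor in the interaction and the average inhibitor effect that draw on that comparison. In 4 dpi inhibitor against uninjured cords, injury, inhibitor and procedure cannot be told apart. The same holds for injury and any difference in schedule between 4 dpi inhibitor and uninjured inhibitor cords.

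Neurofilaments are heteropolymers of a light, a medium and a heavy chain, joined in the central nervous system by alpha-internexin (INA) and in many motor and sensory neurons by peripherin (PRPH). They fill large axons and set their calibre, while microtubules of tubulin, stabilised by proteins such as tau and MAP1B, carry axonal transport. In mammals, peripheral neurons that regrow an axon are known to lower their neurofilament transcripts and to raise GAP43 and tubulin transcripts, and in the axolotl cord severed axons grow back through the lesion.

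Both libraries numbered 1 (uninjured and 4 dpi control) stood apart from the other 10, and both lacked the inhibitor. Their 50 most abundant genes held 17.3% and 19.5% of TPM, against 22.3% to 32.9% elsewhere, and every one of the 10 members had its highest level of the 12 libraries in uninjured library 1. Many results are therefore given both with and without these libraries, and the others with all libraries. TPM depend on the rest of the library, and over all genes tested the log2 fold changes had medians of -1.10 for uninjured inhibitor against uninjured cords, -0.69 for 4 dpi inhibitor against 4 dpi control cords and -0.81 for 4 dpi inhibitor against uninjured cords. With median-of-ratios scaling, in which each library is divided by a factor that brings most genes to a common level, these medians were -0.18, -0.07 and -0.15. A member is said to have fallen or risen only where limma gave an adjusted p under 0.05, and fold changes are on the log2(TPM + 0.1) scale, which understates changes of low genes.

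STMN2 was the most abundant member in every library, at 772 to 6007 TPM, and the 10 genes together made up 1.42% of TPM in uninjured library 1 but 0.130% to 0.154% in the 4 dpi inhibitor libraries. Over the 12 libraries the mean levels ran in the order STMN2 (1983 TPM), GAP43 (546 TPM), NEFM (544 TPM), NEFL (362 TPM), TUBB3 (133 TPM), NEFH (87.6 TPM), INA (64.9 TPM), PRPH (35.6 TPM), MAPT (10.8 TPM) and MAP1B (7.92 TPM). Neighbours in this order were not always separated: GAP43 exceeded NEFM in 9 of 12 libraries, NEFH exceeded INA in 8 of 12, and INA exceeded PRPH in only 3 of 12. The members also differed in how far they ranged between libraries. INA spanned a ratio of 881 between its highest and lowest library and NEFH 299, whereas PRPH spanned 2.70. Over the other 10 libraries these ratios were 143 for INA, 44.3 for NEFH and 2.01 for PRPH.

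**Figure D1:**
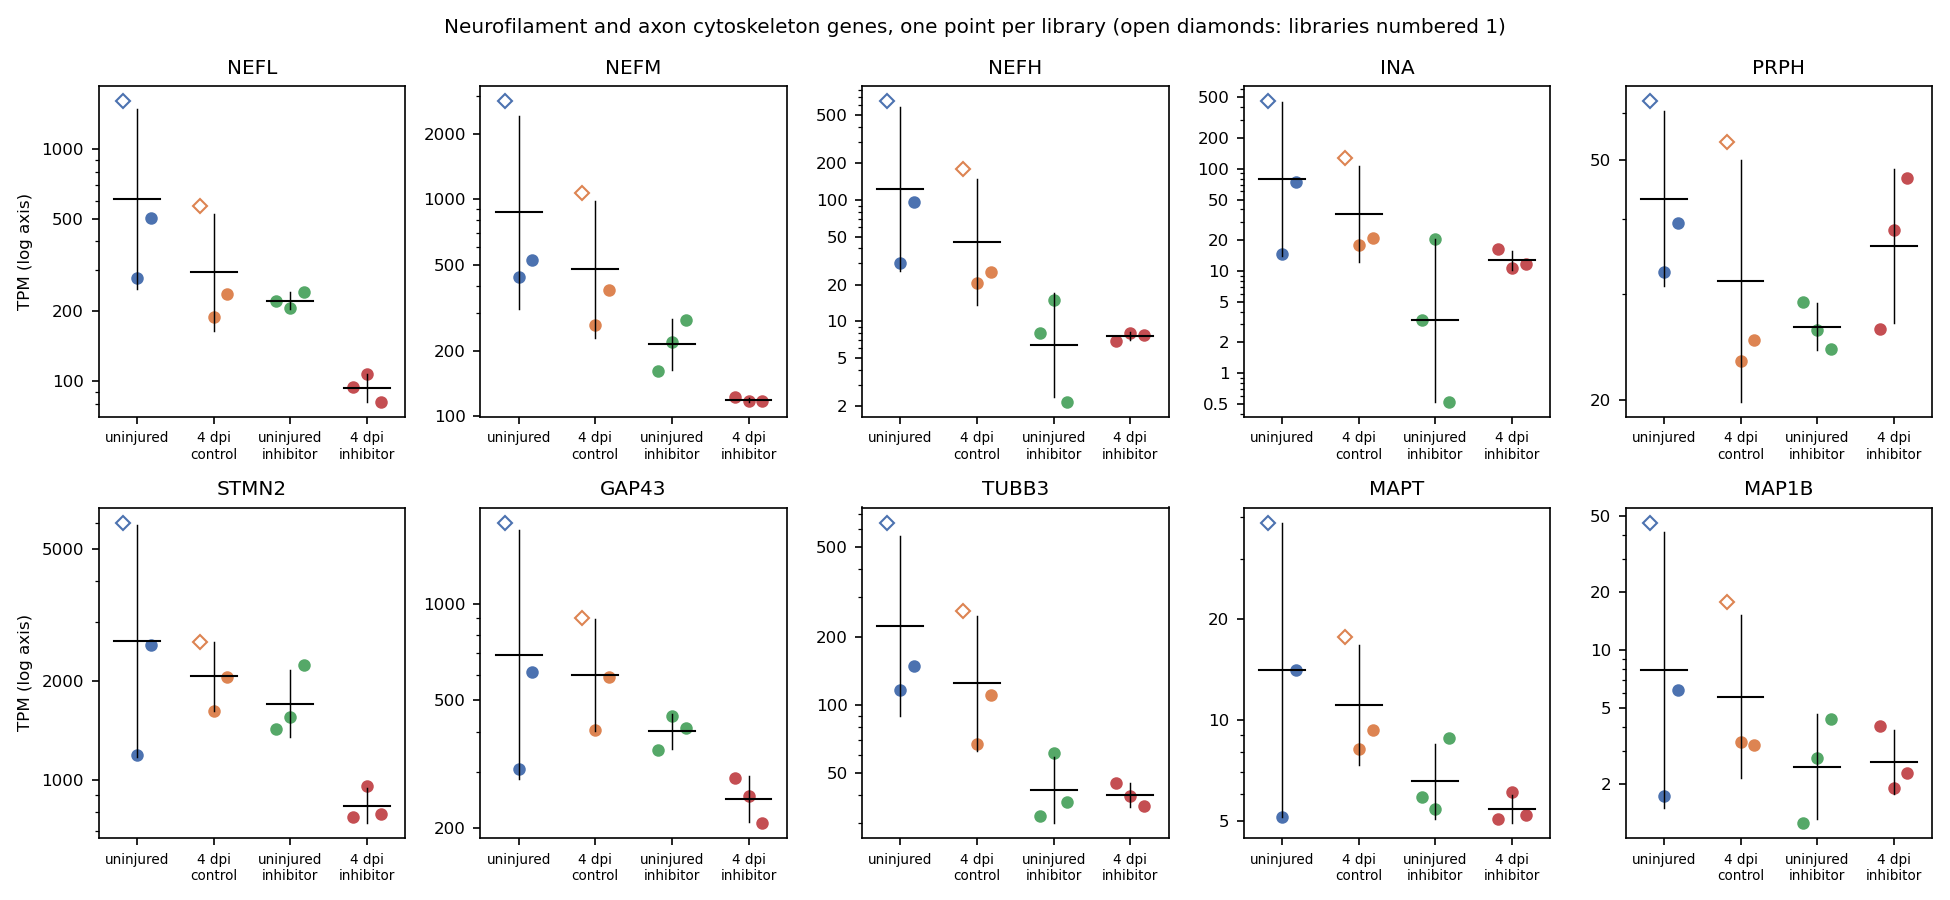
Level of each of the 10 genes in TPM (log axis) in the 4 groups, 1 point per library, with open diamonds for the libraries numbered 1. Horizontal lines are geometric means and vertical lines span 1 SD of the log2 values on each side (n = 3 libraries). For NEFL, NEFM, STMN2 and GAP43 the 3 libraries of the 4 dpi inhibitor group lie below all 3 of the uninjured inhibitor group, as for 9.51% of all genes tested. PRPH changes least.

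NEFL and NEFM were lowest in injured cords with the inhibitor, while NEFH was low in both inhibitor groups. NEFL, the light chain that every neurofilament needs, was at 1613, 278 and 506 TPM in uninjured cords and at 569, 189 and 238 TPM in 4 dpi control cords. It was at 221, 206 and 242 TPM in uninjured inhibitor cords and at 94.1, 107 and 81.4 TPM in 4 dpi inhibitor cords. The 4 dpi inhibitor libraries thus lay below all 9 others, and the uninjured inhibitor libraries lay below all uninjured libraries but within the range of the 4 dpi controls. Between the 4 dpi groups 49.0% of all genes tested were lower with no overlap, and between the inhibitor groups 9.51%. The share of all genes lying below all 9 other libraries was not computed. Against uninjured cords, NEFL fell by 2.70 ± 0.53 (SE; log2, adjusted p = 0.0038) in 4 dpi inhibitor cords and by 1.46 ± 0.53 (adjusted p = 0.032) in uninjured inhibitor cords. When the libraries numbered 1 were left out NEFL still fell, by 2.00 ± 0.25 (adjusted p = 0.000893) and by 0.75 ± 0.25 (adjusted p = 0.0305). The medians over all genes were then -0.56 and -0.82, so that in uninjured inhibitor cords NEFL fell no further than the median gene. With median-of-ratios scaling of all libraries NEFL was called in 4 dpi inhibitor but not in uninjured inhibitor cords. In uninjured inhibitor cords NEFL lost its call when uninjured library 1 alone was left out (-0.75, adjusted p = 0.133) or any of the uninjured inhibitor libraries 5, 6 and 7 (-1.52 to -1.40, adjusted p = 0.0618 to 0.073).

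NEFM, the medium chain, exceeded NEFL in 11 of 12 libraries. It was at 2841, 440 and 526 TPM in uninjured cords, 1067, 262 and 382 TPM in 4 dpi control cords, 161, 219 and 277 TPM in uninjured inhibitor cords, and 122, 117 and 118 TPM in 4 dpi inhibitor cords. The 4 dpi inhibitor libraries were the lowest of all 12 (118.8 ± 2.59 TPM, SD, n = 3), and uninjured inhibitor libraries 5 and 6 lay below all the 4 dpi controls. The shares of all genes given for NEFL apply here too. NEFM fell by 2.87 ± 0.62 (adjusted p = 0.00563) in 4 dpi inhibitor and by 2.02 ± 0.62 (adjusted p = 0.0161) in uninjured inhibitor cords, both against uninjured cords. With both libraries numbered 1 left out the values were -2.02 ± 0.24 (adjusted p = 0.000717) and -1.17 ± 0.24 (adjusted p = 0.00464). The call in uninjured inhibitor cords was lost without uninjured library 1 alone (-1.17, adjusted p = 0.0522) and without uninjured inhibitor library 5 (-1.82, adjusted p = 0.0571). It was also lost with median-of-ratios scaling. Of the members that RefSeq lists by symbol in the axolotl assembly UKY_AmexF1_1 (9 of 10, PRPH being the exception), NEFL and NEFM are the only pair that are neighbouring protein-coding genes.

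NEFH, the heavy chain with long side arms that space filaments in thick axons, changed most of the 3 chains. It was at 652, 30.1 and 96.7 TPM in uninjured, 179, 20.6 and 25.4 TPM in 4 dpi control, 8.06, 15.1 and 2.18 TPM in uninjured inhibitor, and 6.95, 8.07 and 7.69 TPM in 4 dpi inhibitor cords. In TPM as deposited no library with the inhibitor reached the lowest library without it. The share of all genes separated in this way was not computed, and between the 4 dpi groups alone 49.0% were lower with no overlap. With median-of-ratios scaling uninjured inhibitor library 6 (factor 0.775) lay above 4 dpi control library 5 (factor 1.08), so the separation depended on scaling. Against uninjured cords, NEFH fell by 4.02 ± 1.04 (adjusted p = 0.0118) in 4 dpi inhibitor cords and fell by 4.24 ± 1.04 (adjusted p = 0.00609) in uninjured inhibitor cords. Without the libraries numbered 1 the values were -2.82 ± 0.70 (adjusted p = 0.0128) and -3.04 ± 0.70 (adjusted p = 0.00705).

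INA, the internexin of central axons, was the most erratic member. It was at 461, 14.6 and 74.7 TPM in uninjured, 127, 17.8 and 21.0 TPM in 4 dpi control, 3.30, 20.7 and 0.523 TPM in uninjured inhibitor, and 16.3, 10.8 and 11.6 TPM in 4 dpi inhibitor cords. Uninjured inhibitor library 6 lay above the lowest uninjured library, and the other 2 of its group were the lowest of the series. INA fell by 4.50 ± 1.28 (adjusted p = 0.0117) in uninjured inhibitor against uninjured cords, a call that was lost without uninjured inhibitor library 7 (-3.24, adjusted p = 0.0523). Without the libraries numbered 1 that value was -3.23 and INA was still called. In 4 dpi inhibitor cords the difference from uninjured was -2.64 ± 1.28 (adjusted p = 0.112).

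PRPH, the filament protein of motor and sensory neurons, passed the test in no comparison of 2 groups with all libraries. It was at 62.7, 32.6 and 39.4 TPM in uninjured, 53.7, 23.2 and 25.1 TPM in 4 dpi control, 29.1, 26.1 and 24.3 TPM in uninjured inhibitor, and 26.2, 38.2 and 46.7 TPM in 4 dpi inhibitor cords. Its 4 dpi inhibitor libraries overlapped those of uninjured and of 4 dpi control cords. The difference from uninjured cords was -0.26 ± 0.35 (adjusted p = 0.549) in 4 dpi inhibitor and -0.71 ± 0.35 (adjusted p = 0.0993) in uninjured inhibitor cords, and with median-of-ratios scaling these values were 0.41 and 0.23. Alone among the members, PRPH is not listed by symbol in the axolotl assembly. Its level rests on the best-hit assignment of contigs to human proteins, which could move values between it and related filament genes.

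The filament chains did not keep fixed proportions, shown here by ratios to NEFL within each library, which do not depend on how a library is scaled. These ratios were chosen after the values were seen and carry no test. NEFH stood at 0.404, 0.108 and 0.191 of NEFL in uninjured cords and at 0.314, 0.109 and 0.107 in 4 dpi control cords. With the inhibitor it stood at 0.0365, 0.0733 and 0.00901 of NEFL without injury and at 0.0738, 0.0754 and 0.0944 at 4 dpi, so that the 6 libraries with the inhibitor lay below the 6 without. PRPH went the other way, at 0.0389 to 0.117 of NEFL in uninjured, 0.0943 to 0.123 in 4 dpi control, 0.101 to 0.132 in uninjured inhibitor and 0.278 to 0.574 in 4 dpi inhibitor cords. INA stood at 0.0524 to 0.286 of NEFL in uninjured, 0.0882 to 0.223 in 4 dpi control, 0.00216 to 0.1005 in uninjured inhibitor and 0.101 to 0.173 in 4 dpi inhibitor cords, the last lying within the range of cords without the inhibitor. NEFM stayed between 0.732 and 1.88 times NEFL in all libraries, and of the pairs of groups only uninjured inhibitor and 4 dpi control cords did not overlap.

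STMN2 and GAP43, the growth-associated members, were lower at 4 dpi with the inhibitor than in every library of the other 3 groups in TPM as deposited. With median-of-ratios scaling this held for STMN2, while the 4 dpi inhibitor libraries of GAP43 overlapped those of uninjured cords. Between the 4 dpi groups 49.0% of all genes tested were lower with no overlap in TPM as deposited, and between the inhibitor groups 9.51%. With that scaling these shares were 17.0% and 17.7%. The share of all genes lower than in all 3 other groups was not computed. STMN2, a stathmin that binds tubulin in growing axons, was at 6007, 1195 and 2560 TPM in uninjured, 2624, 1618 and 2056 TPM in 4 dpi control, 1428, 1556 and 2227 TPM in uninjured inhibitor, and 772, 962 and 788 TPM in 4 dpi inhibitor cords. The uninjured inhibitor libraries all lay within the range of the uninjured libraries. STMN2 fell by 1.66 ± 0.44 (adjusted p = 0.0125) in 4 dpi inhibitor against uninjured cords, and the difference of uninjured inhibitor from uninjured cords was -0.63 ± 0.44 (adjusted p = 0.222). The latter was -0.04 ± 0.30 (adjusted p = 0.924) when both libraries numbered 1 were left out, with a 95% interval from -0.72 to 0.64.

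GAP43, a membrane protein of growth cones, behaved like STMN2. It was at 1787, 305 and 615 TPM in uninjured, 901, 404 and 589 TPM in 4 dpi control, 349, 446 and 411 TPM in uninjured inhibitor, and 286, 252 and 207 TPM in 4 dpi inhibitor cords. The lowest uninjured library, the unnumbered one, was the closest to the 4 dpi inhibitor libraries. GAP43 fell by 1.49 ± 0.49 (adjusted p = 0.0297) in 4 dpi inhibitor against uninjured cords, a call that was lost without the libraries numbered 1 (-0.81 ± 0.29, adjusted p = 0.0538) and with median-of-ratios scaling (-0.82, adjusted p = 0.13). It was also lost without uninjured library 1 alone (-0.81, adjusted p = 0.0953) and without any of the 4 dpi inhibitor libraries 5, 6 and 7 (-1.60 to -1.37, adjusted p = 0.0589 to 0.0947). STMN2 kept its call without those libraries (-1.06 ± 0.30, adjusted p = 0.0229) but not with that scaling (-0.98, adjusted p = 0.0739). In uninjured inhibitor cords GAP43 differed from uninjured cords by -0.80 ± 0.49 (adjusted p = 0.172).

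Among the microtubule genes, TUBB3 encodes the neuronal beta-III tubulin by which axons are commonly stained. In TPM as deposited TUBB3 was lower in every library with the inhibitor than in any without it. It was at 642, 117 and 150 TPM in uninjured, 260, 67.4 and 111 TPM in 4 dpi control, 32.4, 61.4 and 37.3 TPM in uninjured inhibitor, and 45.4, 39.5 and 35.6 TPM in 4 dpi inhibitor cords. The highest library with the inhibitor was uninjured inhibitor library 6, and the inhibitor groups overlapped each other. With median-of-ratios scaling that library (factor 0.775) lay above 4 dpi control library 5 (factor 1.08), so the separation depended on scaling. Between the 4 dpi groups 49.0% of all genes tested were lower with no overlap in TPM as deposited. The share for all libraries with the inhibitor against all without it was not computed. TUBB3 fell by 2.48 ± 0.59 (adjusted p = 0.00797) in 4 dpi inhibitor and by 2.41 ± 0.59 (adjusted p = 0.00581) in uninjured inhibitor cords against uninjured cords. Both calls held without the libraries numbered 1. Beta tubulins are close paralogs, and the best-hit assignment of contigs could move values between TUBB3 and its relatives.

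MAPT and MAP1B were low and variable, and neither passed the test in a comparison of 2 groups. MAPT, which encodes tau, was at 38.6, 5.13 and 14.1 TPM in uninjured, 17.6, 8.19 and 9.30 TPM in 4 dpi control, 5.91, 5.41 and 8.79 TPM in uninjured inhibitor, and 5.07, 6.08 and 5.20 TPM in 4 dpi inhibitor cords. MAP1B, a microtubule-associated protein of growing axons, was at 46.2, 1.73 and 6.22 TPM, 17.7, 3.32 and 3.20 TPM, 1.26, 2.76 and 4.40 TPM, and 4.01, 1.93 and 2.301 TPM in the same order. The 4 dpi inhibitor libraries lay below the 4 dpi controls for MAPT, as they did for 49.0% of all genes tested, and every pair of groups overlapped for MAP1B. Against uninjured cords MAPT differed by -1.36 ± 0.57 (adjusted p = 0.0721) and MAP1B by -1.58 ± 0.99 (adjusted p = 0.205) in 4 dpi inhibitor cords.

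**Figure D2:**
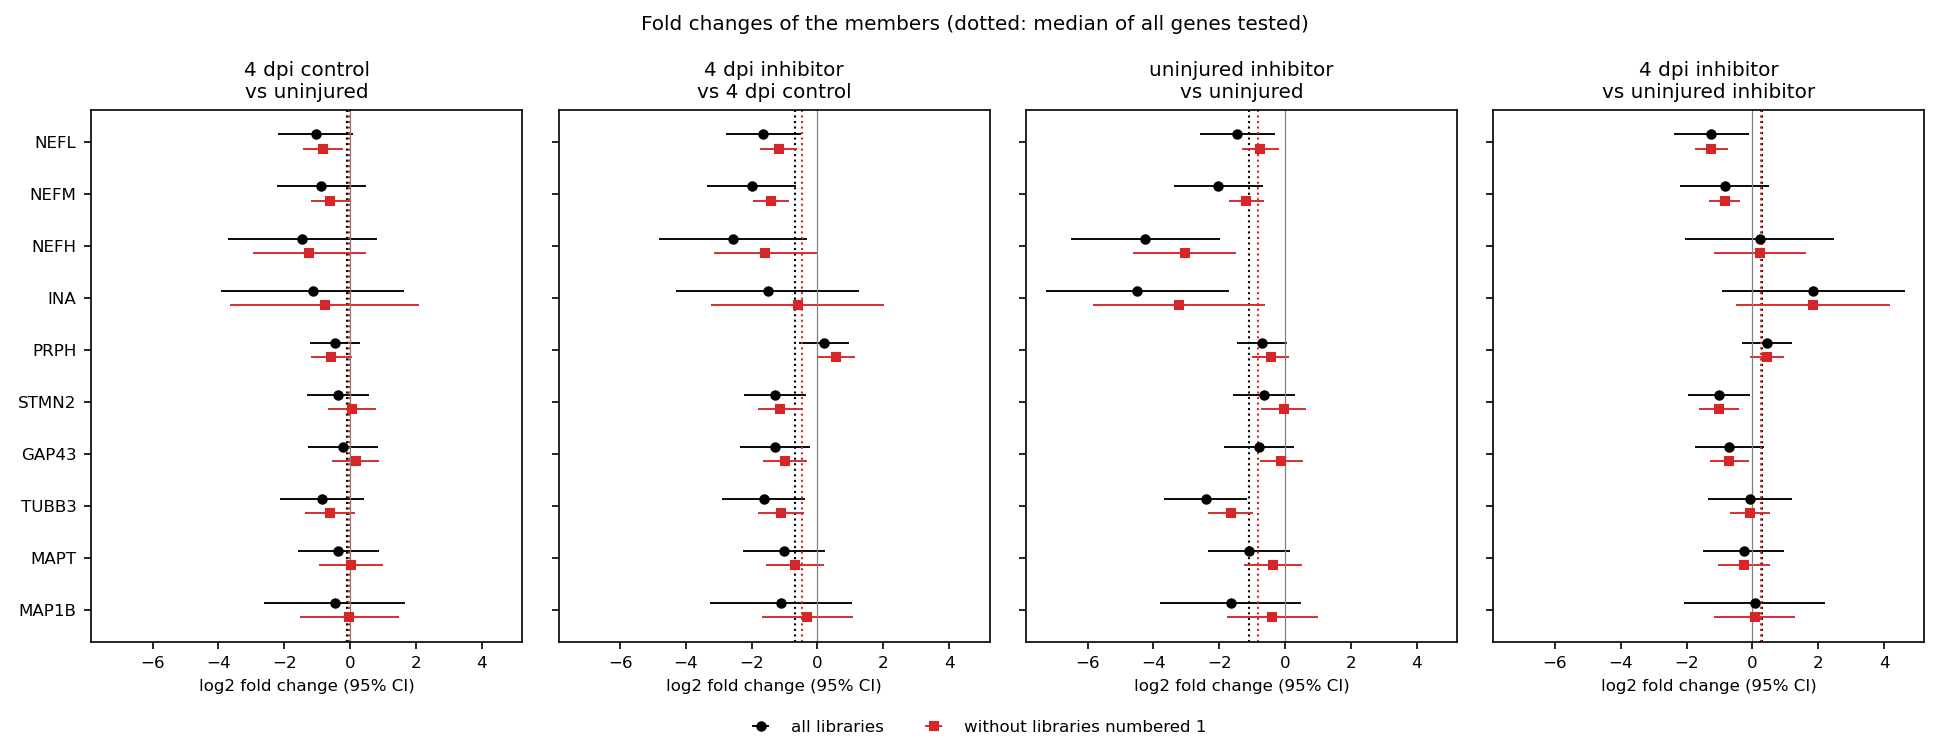
Log2 fold change of each member with its 95% confidence interval (limma) in 4 comparisons, from all libraries (black circles) and without the libraries numbered 1 (red squares). Dotted lines mark the medians over all genes tested, in the same colours. In uninjured inhibitor against uninjured cords NEFM, NEFH, INA and TUBB3 lie left of that median in both fits, while STMN2 and GAP43 lie right of it. All members but INA and PRPH lie left of it in 4 dpi inhibitor against uninjured inhibitor cords, with NEFL, NEFM, STMN2 and GAP43 furthest left.

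Injury with the control inhibitor left no member past the test. In 4 dpi control against uninjured cords 0 of 10 members were called by limma, and 0 had an unadjusted p under 0.05, where 0.0434% of all genes tested were called lower, 0.861% higher and 10.2% had such an unadjusted p. The members' median log2 fold change was -0.66, beside -0.08 over all genes, from -1.45 for NEFH to -0.21 for GAP43. Without the libraries numbered 1, 7 members kept a negative value, and the other 3 were MAPT at 0.04, STMN2 at 0.06 and GAP43 at 0.17. In that subset 5 members (NEFL, NEFM, NEFH, PRPH and TUBB3) were lower in 4 dpi control libraries with no overlap, as were 22.3% of all genes in a comparison of 2 libraries with 2. For NEFL the 95% interval of the difference over all libraries ran from -2.19 to 0.09.

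The miR-200a inhibitor at 4 dpi was compared with the control inhibitor at 4 dpi, the comparison in which both groups were injured and injected. Of the 10 members 8 had all 3 inhibitor libraries below all 3 control libraries, all but PRPH and MAP1B, where 49.0% of all genes tested did so. With median-of-ratios scaling there were 7, where 17.0% of all genes did so, INA no longer counted, and PRPH was higher with no overlap, where 18.5% of all genes were. By limma 0 of 10 members were called (6 at an unadjusted p under 0.05, namely NEFL, NEFM, NEFH, STMN2, GAP43 and TUBB3), where 3.19% of all genes were called lower and 34.2% had such an unadjusted p. Without the libraries numbered 1, 0 were called and 7 had an unadjusted p under 0.05, PRPH with a positive value, where 0.0226% of all genes were called lower and 28.7% had such a p. The members' median was -1.40, beside -0.69 for all genes, and the lowest adjusted p were those of NEFM (-1.996 ± 0.62, adjusted p = 0.0663) and NEFL (-1.65 ± 0.53, adjusted p = 0.0684). STMN2 differed by -1.30 ± 0.44 (adjusted p = 0.0765), TUBB3 by -1.64 ± 0.59 (adjusted p = 0.0868), GAP43 by -1.28 ± 0.49 (adjusted p = 0.1) and NEFH by -2.57 ± 1.04 (adjusted p = 0.113). Leaving out uninjured library 1, which enters this comparison only through the shared estimate of spread, brought 6 members past the threshold. In that fit 2875 genes in all were called, against 528 with all libraries. Leaving out the unnumbered uninjured library brought 4 members, with 2010 genes called in all. Leaving out 4 dpi control library 5 brought 1, with 1439 genes called in all.

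In uninjured inhibitor against uninjured cords the members were called about as often as genes in general. Of 10 members 5 fell (NEFL, NEFM, NEFH, INA and TUBB3) and 0 rose, where 51.1% of all genes tested fell and 7.39% rose. The members' median log2 fold change was -1.55, beside -1.10 for all genes, and without the libraries numbered 1 it was -0.60, beside -0.82, with the same 5 members called, where 43.6% of all genes fell. With median-of-ratios scaling 3 members fell (NEFH -3.31, INA -3.59 and TUBB3 -1.47), where 18.0% of all genes did so, and STMN2 (0.31), GAP43 (0.14) and PRPH (0.23) took positive values that did not pass the test. NEFH and TUBB3 were called in all 23 alternatives that were run, INA in 20, NEFM in 19 and NEFL in 14. Without the unnumbered uninjured library 9 members were called, and without uninjured library 1, or uninjured inhibitor library 5 or 7, the number was 3. Genes called in all numbered 8810 in the first of these fits and 5981, 5707 and 5997 in the others, in that order, against 8081 with all libraries.

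In 4 dpi inhibitor against uninjured cords, groups that differ in injury and inhibitor and perhaps in injection, 6 members fell (NEFL, NEFM, NEFH, STMN2, GAP43 and TUBB3), where 31.2% of all genes tested fell and 9.39% rose. The members' median was -2.07, beside -0.81 for all genes. With both libraries numbered 1 left out there were 5, GAP43 being lost, where 26.1% of all genes fell. With median-of-ratios scaling 4 fell (NEFL -2.03, NEFM -2.20, NEFH -3.35 and TUBB3 -1.81), where 12.1% of all genes fell. NEFL, NEFM, NEFH and TUBB3 were called in all 23 alternatives, STMN2 in 21 and GAP43 in 13. This comparison and those above share the uninjured libraries, so their values are not independent of each other.

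Among cords with the inhibitor, all of which come from libraries numbered 5 to 7, injury went with lower NEFL, NEFM, STMN2 and GAP43. These 4 members had all 3 injured libraries below all 3 uninjured ones, where 9.51% of all genes tested did so (17.7% with median-of-ratios scaling, which added MAPT). By limma 0 of 10 were called with all libraries (NEFL and STMN2 at an unadjusted p under 0.05), where 0.0434% of all genes were called lower and 20.8% had such an unadjusted p. When the libraries numbered 1, which enter only the estimate of spread, were left out, NEFL fell by 1.25 ± 0.23 (adjusted p = 0.0239), where 1.18% of all genes fell, and STMN2 was at -1.03 ± 0.27 (adjusted p = 0.0566) and NEFM at -0.85 ± 0.22 (adjusted p = 0.0518). The median of all genes was 0.28 in this comparison and that of the members -0.17. NEFH (0.22 ± 1.04) and TUBB3 (-0.07 ± 0.59) did not pass the test. INA, at 1.85 ± 1.28 (adjusted p = 0.424), was the member with the most positive value and the widest interval, from -0.93 to 4.63. The schedule of the uninjured inhibitor cords is not described, so injury and time since injection cannot be told apart in this comparison.

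Whether the inhibitor acted differently on the members in injured and in uninjured cords was tested as an interaction. By limma 0 of 10 members were called, and 0 had an unadjusted p under 0.05, where 0.0145% of all genes tested were called lower, 0.0289% higher and 8.17% had such an unadjusted p. The values ran from -0.67 for STMN2 (95% interval from -2.01 to 0.67) to 2.99 for INA (from -0.94 to 6.92). Averaged over injured and uninjured cords, 8 members fell with the inhibitor, all but PRPH and MAP1B, where 59.2% of all genes tested fell. The largest were NEFH (-3.41 ± 0.74, adjusted p = 0.00252) and INA (-3.0 ± 0.91, adjusted p = 0.0126). Over the libraries not numbered 1 there were 6, INA and MAPT being lost, where 48.4% of all genes fell. With median-of-ratios scaling NEFM, NEFH and TUBB3 fell, where 16.5% of all genes did so, and PRPH rose by 0.53 (adjusted p = 0.0438), where 19.6% of all genes rose.

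The growth-associated genes STMN2 and GAP43, and TUBB3 and MAP1B, were each set against a neurofilament gene in 4 ratios within each library. STMN2 stood at 3.72, 4.30 and 5.06 times NEFL in uninjured cords, 4.61, 8.55 and 8.64 times in 4 dpi control, 6.47, 7.56 and 9.20 times in uninjured inhibitor, and 8.21, 8.98 and 9.68 times in 4 dpi inhibitor cords. GAP43 stood at 0.629, 0.693 and 1.17 times NEFM, then 0.844, 1.54 and 1.54, then 2.16, 2.04 and 1.49, and then 2.35, 2.15 and 1.76 times in the same order. In both ratios no uninjured library reached the lowest uninjured inhibitor library, and the 4 dpi control libraries 5 and 6 lay above library 1 of that group. MAP1B stood at 0.0574 to 0.0709 times NEFH in uninjured and at 0.0992 to 0.161 times in 4 dpi control cords, with no overlap. With the inhibitor it stood at 0.156 to 2.02 times in uninjured and at 0.239 to 0.577 times in 4 dpi cords.

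The inhibitor's effect on each ratio was tested over all 12 libraries by an exact permutation test, two-sided, with labels permuted within injured and within uninjured cords. GAP43 to NEFM was higher by 0.97 (log2, exact p = 0.005, the smallest that 400 arrangements can give, adjusted p = 0.01 over these 4 ratios and 0.05 over all 20 ratio tests). MAP1B to NEFH was higher by 2.03 (exact p = 0.005, adjusted p = 0.01 and 0.05), and STMN2 to NEFL by 0.59 (exact p = 0.02, adjusted p = 0.0267 and 0.133). Without the libraries numbered 1 the differences were 0.74 (exact p = 0.01) for GAP43 to NEFM, 1.96 (exact p = 0.03) for MAP1B to NEFH and 0.39 (exact p = 0.06) for STMN2 to NEFL. MAP1B to NEFH rests on low values, and uninjured inhibitor library 7, at 2.02 against 0.156 to 0.577 in the other 5 libraries with the inhibitor, held NEFH at only 2.18 TPM. Within a single pair of groups 3 libraries against 3 cannot give a p under 0.1, and none of those tests passed.

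TUBB3 to NEFL behaved differently. The ratio was 0.398, 0.420 and 0.296 in uninjured, 0.458, 0.356 and 0.466 in 4 dpi control, 0.147, 0.298 and 0.154 in uninjured inhibitor, and 0.482, 0.369 and 0.438 in 4 dpi inhibitor cords. The uninjured inhibitor libraries were all below the 4 dpi inhibitor libraries, a difference of 1.17 on the log2 scale (exact permutation test, p = 0.1, the smallest possible), whereas the other 3 groups overlapped. Averaged over injured and uninjured cords the inhibitor's effect on this ratio was -0.47 (exact p = 0.125).

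**Figure D3:**
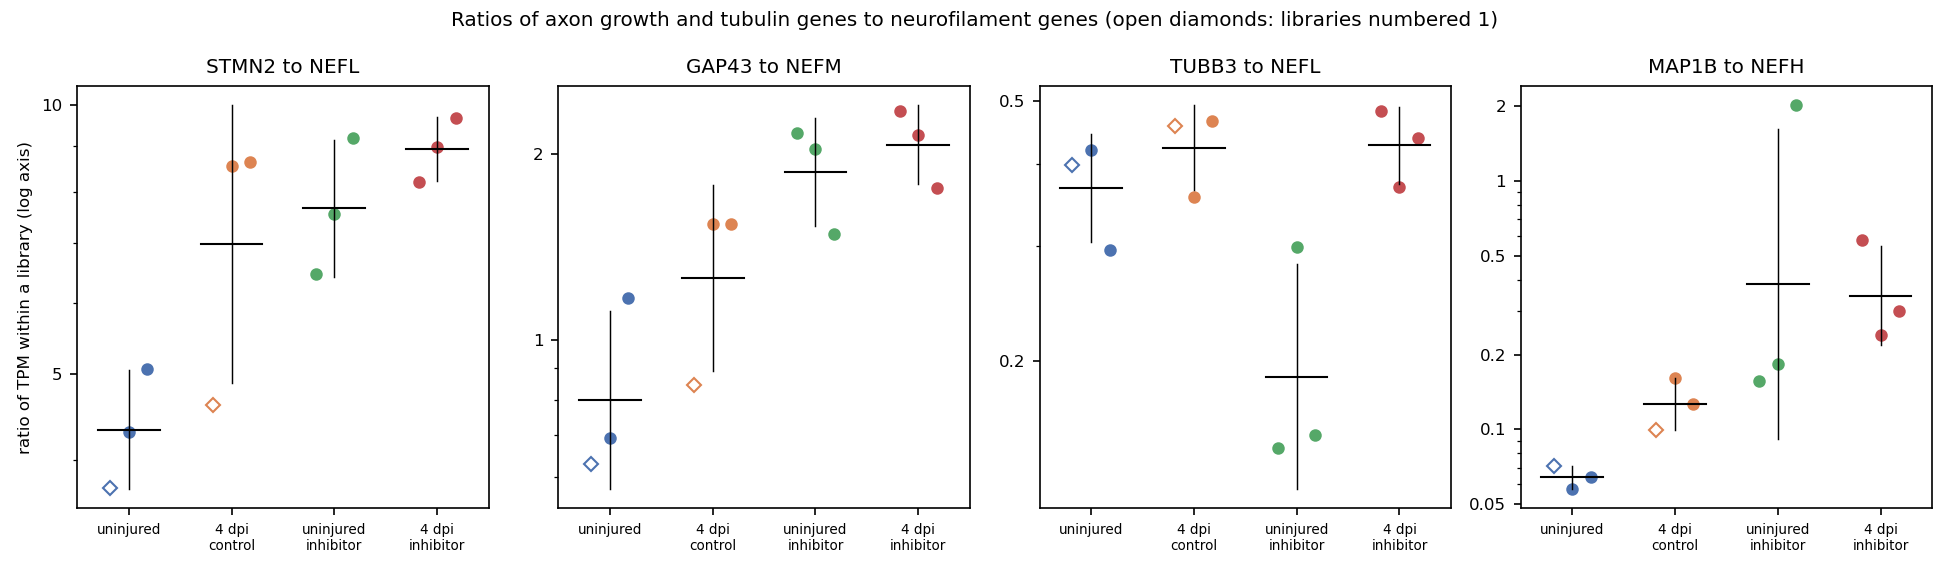
Ratio of TPM within each library (log axis) for STMN2 to NEFL, GAP43 to NEFM, TUBB3 to NEFL and MAP1B to NEFH, with 1 point per library and open diamonds for the libraries numbered 1. Horizontal lines are geometric means and vertical lines span 1 SD of the log2 values on each side (n = 3). GAP43 to NEFM lies at 0.629 to 1.17 in uninjured and at 1.76 to 2.35 in 4 dpi inhibitor cords, and TUBB3 to NEFL is lowest in uninjured inhibitor cords.

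In a bulk sample fewer neurons and less RNA per neuron cannot be told apart, so markers of neuronal cell bodies and synapses were read beside the members. Summed over 26 such genes, the level was 2089 to 9835 TPM in uninjured, 1723 to 3675 in 4 dpi control, 1740 to 2256 in uninjured inhibitor and 1019 to 1109 in 4 dpi inhibitor cords. The members' sum divided by this sum stayed between 1.16 and 1.64 in all 12 libraries while the members' own sum ranged from 1303 to 14150 TPM. That ratio was 1.16 to 1.44 in uninjured, 1.52 to 1.64 in 4 dpi control, 1.29 to 1.43 in uninjured inhibitor and 1.25 to 1.39 in 4 dpi inhibitor cords. It was chosen after the values were seen and carries no test, and the highest 3 of the 12 libraries were the 4 dpi controls. STMN2 held much of the members' sum, 6007 of 14150 TPM in uninjured library 1 and 2227 of 3235 TPM in uninjured inhibitor library 7. The ratio therefore says little about members at lower levels, such as NEFH at 652 and 2.18 TPM in the same libraries.

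In TPM as deposited the neuronal soma and synapse markers were called lower more often than all genes in 4 dpi inhibitor against uninjured cords. In uninjured inhibitor against uninjured cords they were called lower about as often as all genes. In 4 dpi inhibitor against uninjured cords 17 of 26 fell and 0 rose, with a median of -2.17, among them SNCG, a synuclein (-2.84 ± 0.44, adjusted p = 0.00175), and CPLX1, a complexin of synaptic release (-3.05 ± 0.53, adjusted p = 0.00249). In uninjured inhibitor against uninjured cords 14 fell and 1 rose, and in 4 dpi control against uninjured cords 0 passed. These counts stand beside 31.2% of all genes tested called lower in 4 dpi inhibitor and 51.1% in uninjured inhibitor cords. With median-of-ratios scaling, where these shares were 12.1% and 18.0%, 13 and 7 fell and 2 and 2 rose. Of 9 motor neuron markers 7 fell in 4 dpi inhibitor and 8 in uninjured inhibitor cords, and their summed level, which includes PRPH, ran from 126 to 586 TPM in uninjured, 69.3 to 225 in 4 dpi control, 61.7 to 71.1 in uninjured inhibitor and 49.0 to 64.2 in 4 dpi inhibitor cords. CHAT, the acetylcholine-synthesising enzyme of motor neurons, was listed at 0 in 4 libraries, all of them with the inhibitor. Of 11 interneuron markers 6 and 8 fell, and of 13 sensory neuron markers 7 and 7. With median-of-ratios scaling 6 and 4 motor neuron, 2 and 5 interneuron and 3 and 1 sensory neuron markers fell. SCN9A, a sodium channel of sensory neurons, was listed at 0 in 7 libraries. The part of neuron content in the members' changes was not tested.

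Markers of other tissue moved with the groups as well. Skeletal muscle markers, 14 measured and none at 0, summed to 11944 to 47567 TPM in uninjured, 12137 to 21490 in 4 dpi control, 5062 to 10388 in uninjured inhibitor and 7066 to 8049 in 4 dpi inhibitor cords, and 13 of 14 fell in uninjured inhibitor and 12 in 4 dpi inhibitor against uninjured cords. Markers of microglia, macrophages and granulocytes, 12 measured and none at 0, summed to 449 to 1120 TPM, 1783 to 2220 TPM, 951 to 1218 TPM and 2291 to 2744 TPM in uninjured, 4 dpi control, uninjured inhibitor and 4 dpi inhibitor cords. Of these 7 rose in 4 dpi control, 7 rose and 1 fell in uninjured inhibitor, and 9 rose in 4 dpi inhibitor cords, each against uninjured. Of all genes tested 0.861%, 7.39% and 9.39% rose in these comparisons, in that order. The shares that fell were 51.1% in uninjured inhibitor and 31.2% in 4 dpi inhibitor cords. With median-of-ratios scaling 5 of 14 muscle markers fell in uninjured inhibitor and 4 in 4 dpi inhibitor cords, where 18.0% and 12.1% of all genes fell. The counts of microglia, macrophage and granulocyte markers are given for TPM as deposited only. Myelin and oligodendrocyte markers, 8 measured, summed to 846 to 10839 TPM in uninjured, 1776 to 3577 in 4 dpi control, 711 to 2385 in uninjured inhibitor and 984 to 1164 TPM in 4 dpi inhibitor cords. MOG, a myelin protein, was at 0 in 3 libraries. Skin epithelium markers, 12 measured, summed to 2124 to 8652 TPM, 4172 to 4632 TPM, 881 to 2104 TPM and 1840 to 3705 TPM in the same order of groups. Markers of Schwann cells, ependymoglia and erythroid cells are not reported here. Their part in the members' values was not tested.

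Other genes of the axon cytoskeleton were read from lists, whose counts against uninjured cords stand beside 31.2% of all genes tested lower and 9.39% higher in 4 dpi inhibitor and 51.1% and 7.39% in uninjured inhibitor cords. With median-of-ratios scaling these shares were 12.1% and 16.6%, and 18.0% and 19.3%. Of 39 other tubulins and microtubule-associated proteins, 18 fell and 1 rose in 4 dpi inhibitor against uninjured cords, with a median of -1.21 beside -0.81 for all genes, and 21 fell and 1 rose in uninjured inhibitor cords, with a median of -1.34 beside -1.10. STMN3, a stathmin related to STMN2, fell by 2.09 ± 0.41 (adjusted p = 0.00392) and MAPRE3, an end-binding protein of neuronal microtubules, fell by 2.59 ± 0.46 (adjusted p = 0.0027) in 4 dpi inhibitor cords. TUBB4A, a beta tubulin of neurons and oligodendrocytes, fell by 3.43 ± 0.73 (adjusted p = 0.00338) in uninjured inhibitor cords. With median-of-ratios scaling the counts were 9 fallen and 4 risen in 4 dpi inhibitor and 5 fallen and 6 risen in uninjured inhibitor cords.

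Of 27 kinesin, dynein and adaptor genes of axonal transport 9 fell and 0 rose in 4 dpi inhibitor and 14 fell and 0 rose in uninjured inhibitor cords, close to the shares of all genes. KIF5A, the neuronal kinesin heavy chain, fell by 2.21 ± 0.54 (adjusted p = 0.00911) in 4 dpi inhibitor cords, and KLC2, a kinesin light chain, by 3.0 ± 0.56 (adjusted p = 0.0023) in uninjured inhibitor cords. With median-of-ratios scaling 5 and 6 of the 27 fell and 2 and 4 rose. Of 18 spectrin, ankyrin and membrane adaptor genes 16 and 18 fell, with medians of -1.74 and -1.96, and 0 rose. SPTAN1, the alpha spectrin of the axonal membrane skeleton, fell by 2.31 ± 0.49 (adjusted p = 0.00496) in 4 dpi inhibitor cords, and DST, dystonin, which links filaments to microtubules, by 2.18 ± 0.40 (adjusted p = 0.0022) in uninjured inhibitor cords. Median-of-ratios scaling left 6 and 8 of these 18 called lower and 0 higher.

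Of 28 kinases, phosphatases and turnover factors that act on neurofilaments or tau 12 fell in 4 dpi inhibitor and 22 in uninjured inhibitor cords, and 0 rose. CDK5R2, an activator of the kinase CDK5, fell by 2.90 ± 0.59 (adjusted p = 0.00439) in 4 dpi inhibitor cords, and MARK4, a kinase that phosphorylates tau and other microtubule-associated proteins, fell by 2.80 ± 0.44 (adjusted p = 0.00182) in uninjured inhibitor cords. With median-of-ratios scaling 8 fell in each comparison, and 1 and 3 rose. Of 12 other intermediate filament and lamin genes 6 fell and 1 rose in 4 dpi inhibitor and 9 fell in uninjured inhibitor cords. GFAP, the filament of glia, fell by 3.31 ± 0.53 (adjusted p = 0.0019) and NES, nestin of neural progenitors, rose by 1.27 ± 0.28 (adjusted p = 0.00581) in 4 dpi inhibitor cords.

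Of 23 growth cone and growth-associated genes 11 fell and 2 rose in 4 dpi inhibitor and 10 fell and 2 rose in uninjured inhibitor cords, with medians of -1.22 and -0.90. TMSB4X, thymosin beta-4, which binds actin monomers in many cell types, rose by 1.05 ± 0.16 (adjusted p = 0.00173), CFL2, a cofilin also made by muscle, rose by 1.02 ± 0.18 (adjusted p = 0.00239), and CAP2, another actin regulator, fell by 2.35 ± 0.58 (adjusted p = 0.00976) in 4 dpi inhibitor cords. With median-of-ratios scaling 2 and 4 fell and 3 and 5 rose, and the medians were -0.55 and 0.04. Of 18 regeneration-associated transcription factors and neuropeptides 1 rose in 4 dpi control cords, ATF3, a stress-induced factor of injured neurons and other cells (2.77 ± 0.48, adjusted p = 0.0117), and it rose by 2.39 ± 0.48 (adjusted p = 0.00419) in 4 dpi inhibitor cords too. In the same 4 dpi inhibitor cords 4 genes of that list fell, SOX11, a factor of developing neurons, by 1.37 ± 0.45 (adjusted p = 0.0299).

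**Figure D4:**
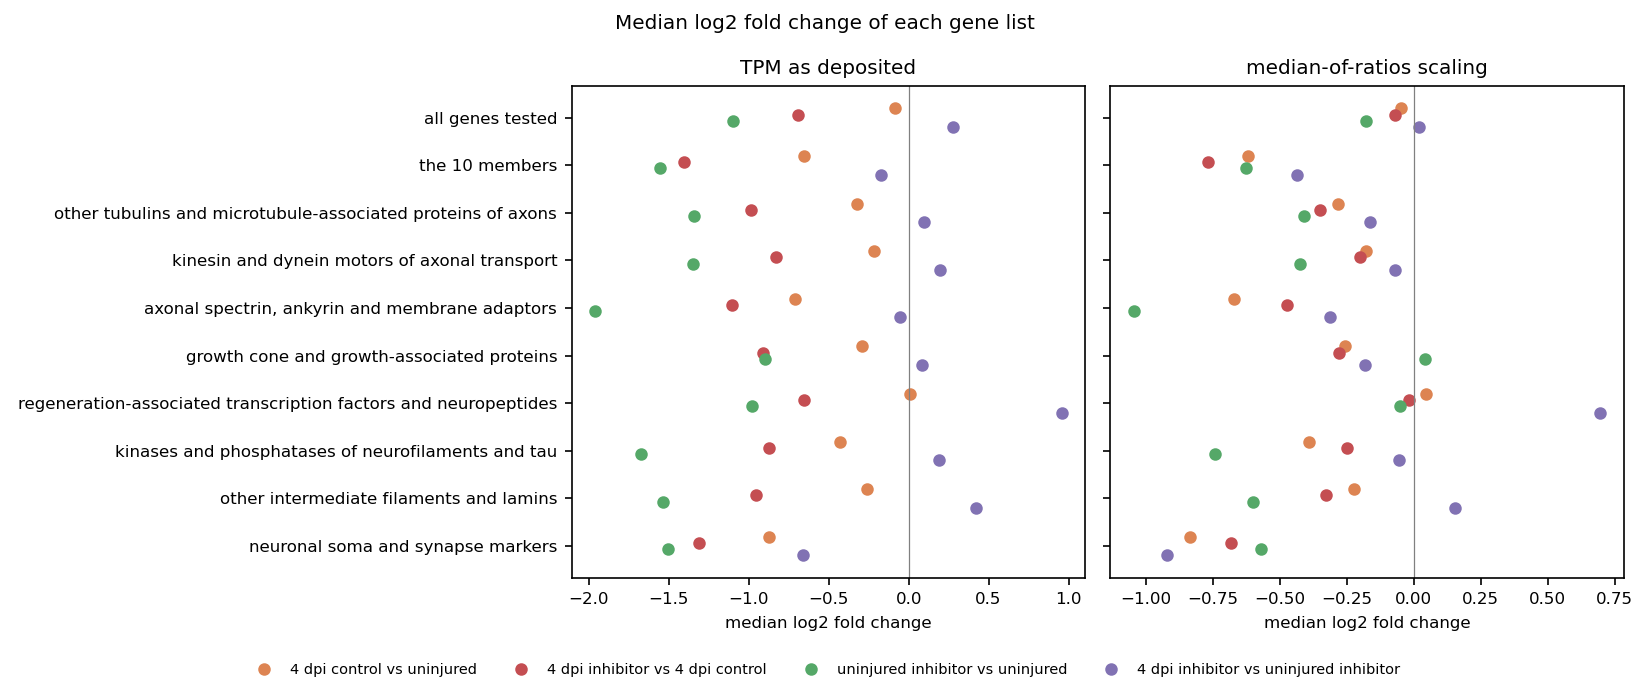
Median log2 fold changes over all genes tested, over the 10 members and over 8 other gene lists in 4 comparisons, from TPM as deposited (left) and with median-of-ratios scaling (right), 1 point per list and comparison. All libraries are used. The members' median lies below that of all genes in every comparison shown, and the neuronal soma and synapse markers lie lowest in 4 dpi inhibitor against uninjured inhibitor cords. Without the libraries numbered 1 (not shown) the members' median in uninjured inhibitor against uninjured cords was above that of all genes. It was -0.60 beside -0.82, and 0.14 beside -0.11 with median-of-ratios scaling as well.

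The members varied together over all 12 libraries, and less so without the libraries numbered 1. Over the 45 pairs of members Pearson's r of log2 levels ran from 0.40 to 0.97 with a median of 0.85 over 12 libraries, and from -0.45 to 0.91 with a median of 0.51 over the 10 libraries not numbered 1. Over those 10 libraries PRPH had a negative r with NEFM, NEFL, MAPT, MAP1B, STMN2, TUBB3 and GAP43. All these values describe libraries that share groups and scaling. Over all 12 libraries the genes outside the lists whose pattern was most like the members' mean were MLLT11 (r = 0.993 over 12 libraries, 0.972 over 10), ADARB1 (0.990 and 0.988), BCAS4 (0.990 and 0.980), PAK5 (0.990 and 0.971) and APC (0.989 and 0.946). By r over the 10 libraries not numbered 1 their ranks among the genes compared were 5 for MLLT11, 1 for ADARB1, 2 for BCAS4, 6 for PAK5 and 20 for APC. The median r of the 9507 genes compared in this way was 0.60 over 12 libraries, and 955 of them had r above 0.9.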

How the data were processed

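The authors pooled the reads for a Trinity assembly, assigned contigs to human proteins by best BLASTX hit, aligned with Bowtie 0.12.1, estimated counts with RSEM 1.1.6 and summed contigs with the same gene symbol, so that paralogs with the same best hit share a value. The values analysed here are the TPM the authors deposited, with 15091 symbols; 25 symbols stored as dates were restored. TPM sum to the same total in every library, so depth is unknown and no counting interval is given. The authors used DESeq2 1.16.1 on counts, which are not used here.

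Libraries were grouped by their labels. Log2(TPM + 0.1) was fitted with limma 3.58.1 in R 4.3.3, with 1 term per group over 12 libraries, a variance trend and p-values adjusted after Benjamini-Hochberg across 13824 genes (mean TPM of 1 or more); calls are two-sided at an adjusted p under 0.05. Within-library ratios were tested by exact permutation. The labels do not say that libraries of a group came from separate collections, so p-values measure the spread between these pooled samples. Scripts were tested on simulated data.

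The members and lists were chosen with earlier results of these data known. Every member is named in every comparison or counted; of each list, up to 3 genes with the smallest p in a comparison and at least 5 TPM in a group; and the 5 genes most like the members. Some genes under this rule are not reported here. The alternatives changed the pseudocount to 1, dropped the filter or raised it to 5 TPM, scaled by median-of-ratios or by quantiles, left out the trend, weighted libraries, added a replicate block, fitted only the groups compared, or left out libraries: each in turn, and both numbered 1. Ratios to NEFL other than TUBB3 and STMN2, and the ratio to neuronal markers, were added after the data were seen.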

Additional observations from a re-analysis of the deposited data

How the results depend on the processing

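Counts are of members called by limma, and other values are log2 fold changes. From all libraries as deposited the counts were 0 in 4 dpi control against uninjured, 0 in 4 dpi inhibitor against 4 dpi control, 6 in 4 dpi inhibitor against uninjured, 5 in uninjured inhibitor against uninjured and 0 in 4 dpi inhibitor against uninjured inhibitor cords, 0 for the interaction and 8 for the average inhibitor effect. Of the 13824 genes tested 125, 528, 5618, 8081, 86, 6 and 9294 were called, in the same order. A pseudocount of 1, no filter, a filter of 5 TPM and no variance trend left every count of members within 1.5 times. Median-of-ratios and quantile scaling each left 3 members called in uninjured inhibitor against uninjured cords and 4 and 5 for the average inhibitor effect. With median-of-ratios scaling without the libraries numbered 1 these were 2 and 4, and 3 were called in 4 dpi inhibitor against uninjured inhibitor cords, where leaving out those libraries alone gave 1. In uninjured inhibitor against uninjured cords these 3 settings called 5156, 3631 and 4463 genes in all, and 4994, 4211 and 3736 for the average inhibitor effect. Between the inhibitor groups 797 genes were called with that scaling and without those libraries, and 705 without those libraries alone. Library weights, whose estimation did not fully converge, gave 4 calls in 4 dpi control against uninjured, 8 in 4 dpi inhibitor against 4 dpi control, 9 in uninjured inhibitor against uninjured, 4 in 4 dpi inhibitor against uninjured inhibitor cords and 4 for the interaction. With these weights 4984, 10012, 10352, 6950 and 5048 of the 13824 genes tested were called, in the same order. Fits of only the groups compared gave 7 and 4 for 4 dpi inhibitor against 4 dpi control and against uninjured inhibitor cords, where 3483 and 943 genes in all were called. The cause of these shifts was not tested. Over all genes tested, median-of-ratios scaling turned the calls in 4 dpi inhibitor against uninjured cords from 31.2% lower and 9.39% higher to 12.1% and 16.6%, those in uninjured inhibitor against uninjured cords from 51.1% and 7.39% to 18.0% and 19.3%, and left 0 in place of 528 genes called in 4 dpi inhibitor against 4 dpi control cords.

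With a replicate block the counts were 2 in 4 dpi control against uninjured, 3 in 4 dpi inhibitor against 4 dpi control, 8 in uninjured inhibitor against uninjured and 3 in 4 dpi inhibitor against uninjured inhibitor cords, and NEFL's interaction turned to 0.16. Of all genes tested 741, 658, 6361 and 2229 were called with the block in these comparisons, in the same order. Deviations of same-numbered libraries from their group means had r of 0.51 and 0.20 between uninjured and 4 dpi control cords but -0.20, -0.23 and 0.01 between the inhibitor groups. Deviations from a mean of 3 libraries depend on each other, so these values cannot decide whether the numbers pair the samples.

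Leaving out a library in turn gave 0 to 6 calls in 4 dpi inhibitor against 4 dpi control, 3 to 9 in uninjured inhibitor against uninjured and 5 to 9 in 4 dpi inhibitor against uninjured cords. Genes called in all ran from 0 to 2875, from 5707 to 8810 and from 2870 to 6484, in the same order. Directions turned within these ranges: in 4 dpi control against uninjured cords INA -2.36 to 0.13, MAPT -1.07 to 0.37, MAP1B -1.55 to 0.79, STMN2 -0.93 to 0.24 and GAP43 -0.81 to 0.47; PRPH -0.028 to 0.57 against 4 dpi control and -0.46 to 0.01 against uninjured cords at 4 dpi with the inhibitor; in 4 dpi inhibitor against uninjured inhibitor cords NEFH -0.54 to 0.83, MAP1B -0.40 to 0.46 and TUBB3 -0.26 to 0.20; and in the interaction NEFM -0.83 to 0.61, NEFL -0.90 to 0.37, MAPT -0.64 to 0.81, MAP1B -0.72 to 1.61 and GAP43 -1.17 to 0.11. Among the ratios, GAP43 to NEFM ran from -0.019 to 0.27 and MAP1B to NEFH from -0.78 to 1.005 in 4 dpi inhibitor against uninjured inhibitor cords, and TUBB3 to NEFL from -0.11 to 0.12 in 4 dpi inhibitor against 4 dpi control cords. STMN2 to NEFL was 0.39 for the average inhibitor effect without the libraries numbered 1 and no longer passed.

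Other turned values belonged to members that had not passed the test there, apart from the average effects on MAPT, STMN2 and GAP43 given last. With median-of-ratios scaling PRPH was 0.41 in 4 dpi inhibitor and 0.23 in uninjured inhibitor against uninjured cords and 0.53 on average, STMN2 0.31 and GAP43 0.14 in uninjured inhibitor against uninjured cords, NEFH -0.037 and MAP1B -0.19 between the inhibitor groups, and NEFM -0.27 and MAPT -0.22 in the interaction. With quantile scaling PRPH was 0.27, 0.0095 and 0.36, NEFH -0.13 and MAP1B -0.38, and in the interaction NEFL 0.11 and MAPT -0.28. Library weights gave NEFH -0.020 and TUBB3 0.21 between the inhibitor groups and PRPH 0.037 on average. Without the libraries numbered 1, MAPT was 0.035, STMN2 0.061 and GAP43 0.17 in 4 dpi control against uninjured cords, PRPH 0.0070 in 4 dpi inhibitor against uninjured cords and 0.069 on average, and NEFM -0.24 and MAPT -0.30 in the interaction.

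With both median-of-ratios scaling and those libraries left out, MAPT was 0.060, MAP1B 0.0058, STMN2 0.086 and GAP43 0.20 in 4 dpi control against uninjured cords, and MAP1B 0.13 in 4 dpi inhibitor against 4 dpi control cords. PRPH was 0.49 and MAP1B 0.14 in 4 dpi inhibitor against uninjured cords, and PRPH 0.30, MAPT 0.35, MAP1B 0.32, STMN2 0.70 and GAP43 0.62 in uninjured inhibitor against uninjured cords. NEFH was -0.027 and MAP1B -0.18 between the inhibitor groups, NEFM -0.52, MAPT -0.58 and MAP1B -0.18 in the interaction, and PRPH 0.66, MAPT 0.064, MAP1B 0.22, STMN2 0.015 and GAP43 0.046 on average.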
